A study of Mus musculus with 2 samples.

Results

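The genes described here are 34 genes of the ATF4 stress and amino acid supply program, out of 32285 genes counted. They were chosen by symbol, with earlier results of these data known. They comprise 11 stress regulators, 9 enzymes of amino acid and one-carbon synthesis, 7 amino acid transporters, 6 cytosolic aminoacyl-tRNA synthetases and the lipoprotein receptor gene Vldlr. All 34 were found in both libraries, in 35 rows, since Ddit3 is listed under 2 gene identifiers, the second of which had 0 UMIs (unique molecular identifiers, each standing for 1 captured RNA molecule).

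The study compared Tc17 cells, which are CD8 T cells driven toward interleukin-17 production, from C57/B6N mice of 2 genotypes. The control cells came from wild-type mice, and the other cells from mice with loxP-flanked Nfatc1 and a Cd4-Cre transgene, which removes the floxed part in T cells that have expressed Cd4 during development. NFATc1 is a transcription factor that calcium signals bring into the nucleus of stimulated T cells. In both groups CD8 T cells were isolated with affinity beads from mesenteric lymph nodes, cultured with a Th17 polarisation kit (CytoBox Th17), then stimulated for 3 hours with PMA at 100 ng/ml and ionomycin at 10 µg/ml. Each group is 1 single-cell library, and the sources used here do not give the number of mice behind it.

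Cells short of amino acids, or burdened with unfolded protein or oxidants, phosphorylate the translation factor eIF2 and so slow most protein synthesis while the mRNA of the transcription factor ATF4 is translated better. ATF4 pairs with C/EBP proteins on composite DNA sites and turns on genes that import amino acids, make serine, glycine, asparagine and proline, and charge tRNAs. T cells use the same genes when they grow after activation. Most of the control of ATF4 lies in its translation, so its mRNA level is only part of its activity, and protein was not measured.

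Barcodes needed 500 genes or more and no more than 10% mitochondrial UMIs, which left 1018 cells (24452538 UMIs) in the wild-type-labelled and 709 cells (17898193 UMIs) in the Nfatc1-deficient-labelled library. Median depth was 20906 and 21436 UMIs per cell, and no cell barcode occurred in both libraries. Levels are CPM, the UMIs of a gene summed over all kept cells and scaled to a common library total. Library, culture and genotype cannot be told apart. With 1 library per group no test was possible, and the 95% intervals are for counting error alone; they leave out variation among cells, cultures and mice. The label was checked first: Nfatc1 stood at 39.8 CPM in the wild-type-labelled and at 136 CPM in the deficient-labelled library, 3.42-fold higher (3.17 to 3.68) where the gene should be disrupted. The sources used here do not give the exons removed, and 3′ counts outside a deleted part cannot check a deletion, so the genotypes below are those of the labels. CD8 T cell markers were present (Cd8b1 at 335 and 393 CPM), Cd4 stood at 0.450 and 0.391 CPM, and the NK markers Ncr1 and Klrb1c had 0 UMIs in both. Of the B, myeloid, dendritic, stromal and erythroid markers, Epcam had the highest level, at 23.2 and 32.1 CPM. It had a UMI in 26.9% and 32.2% of cells. The others stood at 2.74 CPM or less.

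The composite site TGATGNAA, searched on both strands (TTNCATCA on the other) within 250 bases before to 50 bases after RefSeq transcription starts (GRCm38), was found for 11 of the 30 members with an entry (36.7%), against 4.51% of 27025 genes. No other motif was searched, and a match is a run of letters, not a shown binding site. Slc7a5, Slc1a5, Nars and Wars had no entry. The windows below are those of 5 members with a match that also reached 20 CPM in 1 library, shown because the values of these genes follow; each has 30 bases, 5′ to 3′ on the strand of the gene, with the match in capitals.
Trib3: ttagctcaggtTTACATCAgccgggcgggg
Chac1: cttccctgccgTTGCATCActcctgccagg
Atf3: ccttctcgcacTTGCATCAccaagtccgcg
Asns: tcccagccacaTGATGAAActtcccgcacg
Gars: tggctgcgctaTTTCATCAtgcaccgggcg
The Trib3 window lies at chr2:152344028-152344057 on the minus strand, with the match starting 14 bases after the RefSeq transcription start. In the mm10 annotation used for gene coordinates, Trib3 begins at chr2:152344032, and the match lies before it. The other matches start before the RefSeq start: Chac1 by 193 bases (chr2:119351038-119351067, plus strand), Atf3 by 110 bases (chr1:191183425-191183454, minus strand) and Asns by 23 bases (chr6:7693214-7693243, minus strand). That of Gars lies 30 bases (chr6:55037960-55037989, plus strand) before the start. Slc7a11 held 2 matches, and Nupr1, Pycr1, Slc1a4 and Vldlr held 1 each.

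Of the 34 members, 32 were lower in the deficient-labelled library, where 52.8% of the 19732 genes with a UMI were lower. Since the members were chosen with earlier results of these data known, this and the shares below are a description and no test. The counting interval of the ratio lay below 1 for 29 members, above 1 for 2 (Atf3 and Eprs), and held 1 for Sesn2, Slc3a2 and Slc1a5. With no floor on the level, 12 of the 34 were at least 2-fold lower on log2(CPM + 1), against 1.88% of genes. A floor of 20 CPM in at least 1 library kept 26 members, 23 of which reached it in both libraries; Trib3, Chac1 and Ddit3 reached it in the wild-type-labelled library alone, so they had to differ. Of these 26, 6 were at least 2-fold lower (Ddit3, Trib3, Chac1, Cebpb, Phgdh and Psph), against 2.08% of the 5584 genes over the floor, and 0 were at least 2-fold higher, against 2.27%. By any size, 24 of the 26 were lower, against 45.3% of genes, and 14 were at least 1.5-fold lower, against 5.64%, with 0 at least 1.5-fold higher, against 6.02%. Their median difference was -0.59 on the log2 scale and that of all 5584 genes 0.03. Counted with a total that left out ribosomal protein genes, 10 of 28 members were at least 2-fold lower, against 176 of 6363 genes. That total also moved the median of all genes over the floor from 0.03 to -0.08. In cells called G1, 3 of 25 members were at least 2-fold lower, against 110 of 5494 genes. At the edge of the floor stood Sesn2, just inside at 22.4 and 20.2 CPM, and Slc1a4, just outside at 19.4 and 8.72 CPM.

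**Figure D1:**
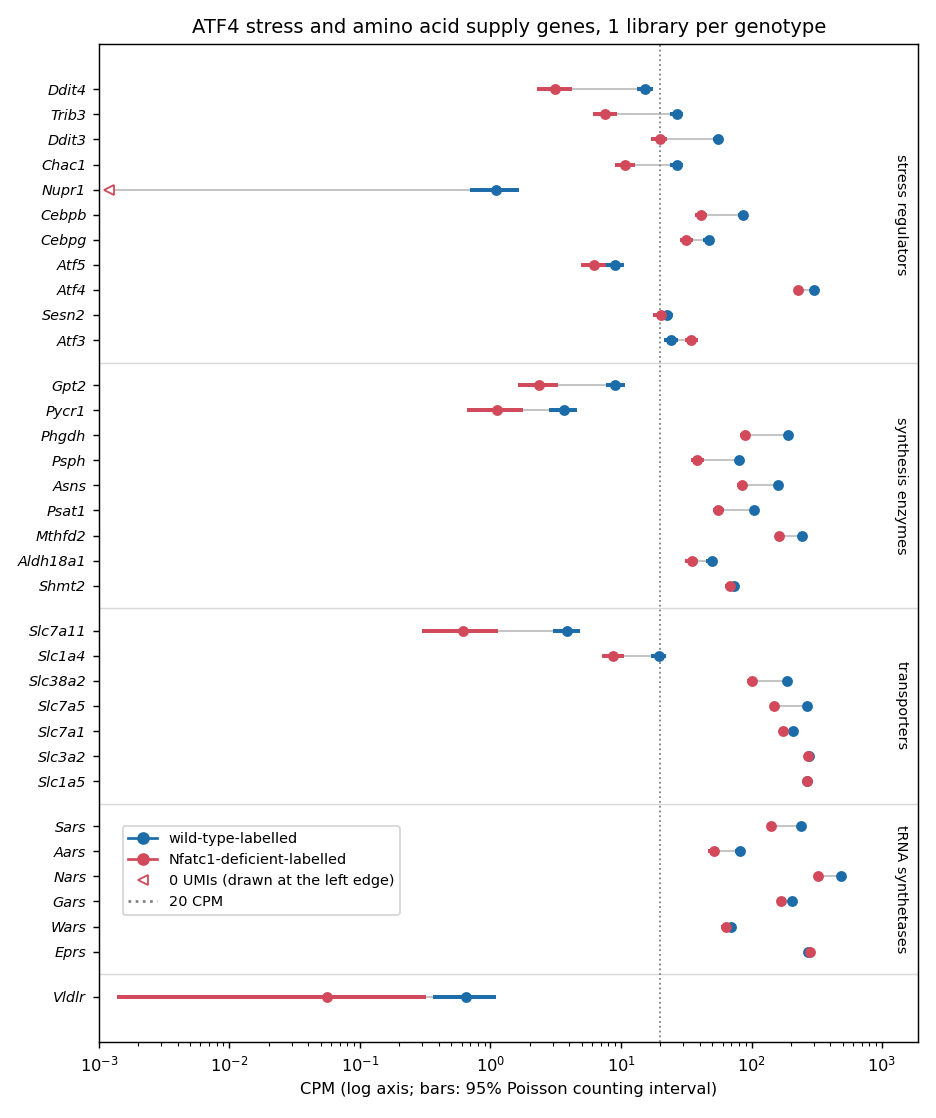
CPM of each of the 34 members (log axis) in the wild-type-labelled (blue) and deficient-labelled (red) library, 1 library each, with 95% Poisson counting intervals as bars and 20 CPM as a dotted line. Most pairs have the red point to the left; Slc3a2 (274 and 273 CPM) and Slc1a5 (267 and 266 CPM) overlap, and Atf3 has the red point to the right.

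The stress regulators summed to 615 CPM in the wild-type-labelled and 400 CPM in the deficient-labelled library, 1.54-fold lower (1.49 to 1.58). Atf4 (ENSMUSG00000042406, chr15:80255184-80257541), the factor that gives the program its name, made up 49.0% and 56.3% of that sum. It stood at 301 and 225 CPM, 1.34-fold lower (1.29 to 1.39). The differences of several of its targets were wider than its own. Ddit3, which encodes the stress factor CHOP, stood at 55.5 and 19.7 CPM, 2.81-fold lower (2.501 to 3.17). Trib3, a pseudokinase that restrains AKT and ATF4, stood at 26.7 and 7.54 CPM, 3.55-fold lower (2.94 to 4.30). Chac1, which breaks down glutathione, stood at 26.7 and 10.8 CPM, 2.48-fold lower (2.11 to 2.93). Both carry the composite site shown above. Cebpb stood at 85.9 and 40.8 CPM, 2.10-fold lower (1.93 to 2.29). Its smaller relative Cebpg, a usual partner of ATF4, stood at 46.9 and 31.6 CPM, 1.48-fold lower (1.34 to 1.64).

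Atf3, an immediate-early factor of the same family, ran the other way although its promoter holds the composite site. It stood at 24.2 and 34.5 CPM, 1.42-fold higher (1.27 to 1.60). The direction changed in 1 of 15 alternative settings: with the cytokine classes described below weighted as in the wild-type-labelled library, its log2 difference was -0.09. The part of the mix of cells was not tested. Sesn2, a leucine sensor that holds back mTORC1, stood at 22.4 and 20.2 CPM, and the interval of its ratio (0.967-fold to 1.27-fold lower) included 1. Among regulators under the floor, Ddit4, an mTORC1 inhibitor also called REDD1, stood at 15.2 and 3.13 CPM, 4.86-fold lower (3.66 to 6.56). Atf5, a relative of ATF4, stood at 8.92 and 6.20 CPM. Nupr1, a small chromatin-binding stress protein, had 27 UMIs (1.10 CPM) in the wild-type-labelled library and 0 in the other, where 0 allows up to 0.168 CPM (3 counts).

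Apart from Atf4, each stress regulator was found in 31.3% (Cebpb) of cells or fewer in the wild-type-labelled library and 15.8% (Cebpg) or fewer in the other, once every cell was thinned to 5000 UMIs. After this step, which kept 1004 and 698 cells, Atf4 was found in 70.6% (67.7% to 73.4%) and 60.3% (56.6% to 64.0%) of cells by exact binomial intervals. Ddit3 was found in 20.1% (17.7% to 22.7%) and 7.88% (5.99% to 10.1%). Trib3 was found in 9.76% (7.996% to 11.8%) and 2.01% (1.10% to 3.34%). Without thinning the Trib3 shares were 31.7% and 10.6%. Apart from Epcam, markers of other cell types were scarce in both libraries, so the share that free RNA alone would give was not measured. The level per cell was uneven too: the tenth of wild-type-labelled cells with the most Trib3 held 57.3% of its UMIs.

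The synthesis enzymes had the widest difference in their sum, 915 CPM against 535 CPM, 1.71-fold lower (1.67 to 1.75). The serine pathway was lower at each of its 3 steps. Phgdh, which draws 3-phosphoglycerate from glycolysis into that pathway, stood at 190 and 88.4 CPM, 2.15-fold lower (2.03 to 2.28). Psat1, the aminotransferase of the next step, stood at 104 and 55.5 CPM, 1.88-fold lower (1.75 to 2.03). Psph, the phosphatase that releases serine, stood at 80.4 and 38.4 CPM, 2.09-fold lower (1.92 to 2.28). Asns, which makes asparagine and carries the composite site 23 bases before its start, stood at 160 and 84.0 CPM, 1.90-fold lower (1.79 to 2.02).

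The mitochondrial one-carbon enzymes downstream of serine differed less. Mthfd2, which oxidises the folate-bound carbon, stood at 244 and 162 CPM, 1.51-fold lower (1.44 to 1.58). Shmt2, which splits serine into glycine and that carbon, stood at 73.6 and 68.2 CPM, 1.08-fold lower (1.003 to 1.16), and its log2 difference was 0.01 in thinned cells and 0.02 in G1 cells. Aldh18a1, at the start of proline synthesis, stood at 49.5 and 34.8 CPM, 1.43-fold lower (1.29 to 1.57). Under the floor, the proline enzyme Pycr1 stood at 3.64 and 1.12 CPM and the alanine aminotransferase Gpt2 at 9.04 and 2.35 CPM.

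The transporters summed to 1225 and 971 CPM, 1.26-fold lower (1.24 to 1.29), and were unequal among themselves. Slc7a5, the light chain of the leucine carrier LAT1, stood at 267 and 148 CPM, 1.80-fold lower (1.72 to 1.88). Slc3a2, the heavy chain it pairs with, stood at 274 and 273 CPM, a ratio whose interval (0.966-fold to 1.04-fold lower) included 1. The log2 difference of Slc3a2 ranged from -0.26 to 0.08 over 15 alternative settings, and that of Slc7a5 from -1.04 to -0.76. Slc38a2, which brings in glutamine and other neutral amino acids with sodium and is itself controlled by amino acid supply, stood at 187 and 101 CPM, 1.85-fold lower (1.75 to 1.96). Slc1a5, the glutamine exchanger ASCT2, stood at 267 and 266 CPM, with log2 differences from -0.12 to 0.08 over the settings. Slc7a1, a carrier of arginine and lysine, stood at 208 and 173 CPM, 1.20-fold lower (1.15 to 1.26).

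Under the floor, Slc1a4, a carrier of serine and alanine, was 2.23-fold lower (1.86 to 2.69). Slc7a11, the cystine carrier of system xc, stood at 3.84 and 0.615 CPM, 6.25-fold lower (3.34 to 12.96), and was found in 7.07% and 1.27% of unthinned cells. Vldlr, which belongs to none of the 4 groups, had 16 UMIs and 1 UMI, a ratio of 11.7-fold lower with a counting interval of 1.82 to 491.

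The 6 tRNA synthetases, which join amino acids to their tRNAs, summed to 1350 and 1026 CPM, 1.31-fold lower (1.29 to 1.34). Sars, the enzyme for serine, stood at 239 and 141 CPM, 1.70-fold lower (1.62 to 1.78). Aars, for alanine, stood at 81.2 and 51.3 CPM, 1.58-fold lower (1.46 to 1.71). Nars, for asparagine, stood at 485 and 320 CPM, 1.51-fold lower (1.46 to 1.56), and Gars, for glycine, at 206 and 170 CPM, 1.21-fold lower (1.16 to 1.27). Wars, for tryptophan, stood at 69.5 and 63.9 CPM, and Eprs, the joint enzyme for glutamate and proline, at 270 and 281 CPM. The directions of these last genes were not stable: Wars had a log2 difference of 0.04 in thinned cells, and Eprs one of -0.06 when ribosomal protein genes were left out of the total. With genes over the floor only, the median log2 difference was -0.81 for stress regulators, -0.90 for synthesis enzymes, -0.26 for transporters and -0.44 for synthetases.

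Related genes outside the 34 were set beside them, from lists by function that were also chosen with earlier results known. Counts and medians of these lists cover the genes that reached 20 CPM in 1 library; 11 of 17 mitochondrial synthetases, 15 of 19 other transporters, 12 of 29 other enzymes, 10 of 21 other ATF4 targets and 11 of 20 mTORC1 genes did not. Of the genes named from these lists, Bcat2, Cth, Nfe2l2 and Vegfa reached 20 CPM in the wild-type-labelled library alone. Wars2 and Sesn1 reached it in the deficient-labelled library alone. The directions of these genes were thus fixed by the floor. Of 14 other cytosolic synthetases over 20 CPM, 12 were lower and 0 at least 2-fold lower, with a median log2 difference of -0.18. Yars had the widest difference, at 175 and 94.3 CPM, then Cars at 68.1 and 49.6 CPM; Kars and Farsa had ratios of 1.02. Mitochondrial synthetases, which serve the organelle's own translation, had 2 of 6 lower and a median of 0.11; Wars2 stood at 17.99 and 31.3 CPM, Yars2 at 32.1 and 36.1 CPM, Lars2 at 133 and 127 CPM and Fars2 at 68.8 and 67.4 CPM. The composite site occurred in 3 of 9 other cytosolic and 0 of 14 mitochondrial synthetase promoters with an entry. Other amino acid transporters had 1 of 4 lower and a median of 0.18: Slc38a10 stood at 42.4 and 60.1 CPM, Slc38a1 at 234 and 280 CPM, Slc7a6 at 54.6 and 58.6 CPM and Slc25a13 at 24.7 and 22.3 CPM.

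Other enzymes of amino acid and one-carbon metabolism were evenly spread, with 7 of 17 lower and a median of 0.07. Bcat2, the mitochondrial branched-chain aminotransferase, stood at 21.0 and 9.89 CPM and Cth, which makes cysteine, at 27.6 and 17.6 CPM, while Sms, for spermine, stood at 130 and 178 CPM and Glud1, glutamate dehydrogenase, at 104 and 135 CPM. The eIF2 machinery upstream of ATF4, its kinases, subunits, exchange factor and phosphatase, had 7 of 14 lower and a median of -0.00. Ppp1r15a, the stress-induced phosphatase subunit GADD34, stood at 77.2 and 97.0 CPM, the kinase gene Eif2ak1 at 26.3 and 32.6 CPM, Eif2s2 at 1233 and 1013 CPM and Eif2b1 at 32.0 and 26.7 CPM.

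Of 21 other genes described as ATF4 targets, 11 reached 20 CPM; 6 of these were lower, 2 of them at least 2-fold, with a median of -0.10. Vegfa, for a vessel growth factor, reached the floor in the wild-type-labelled library alone and stood at 24.99 and 5.03 CPM, 4.97-fold lower (3.98 to 6.27). Eif4ebp1, which blocks the cap-binding factor eIF4E, stood at 267 and 81.7 CPM, 3.26-fold lower (3.08 to 3.46). Xpot, the tRNA exporter, stood at 80.5 and 101 CPM and the autophagy receptor gene Sqstm1 at 77.0 and 84.4 CPM. Genes of endoplasmic reticulum folding had 17 of 19 lower, 1 at least 2-fold, and a median of -0.41. Herpud1, which helps degrade misfolded protein, stood at 163 and 77.3 CPM, 2.11-fold lower (1.99 to 2.25), the folding factor gene Manf at 630 and 386 CPM, Sdf2l1 at 73.1 and 44.4 CPM, Dnajb9 at 66.0 and 76.9 CPM and Atf6 at 127 and 133 CPM.

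Targets of the oxidant sensor NRF2 had 3 of 7 lower and a median of 0.14. Srxn1, sulfiredoxin, stood at 54.1 and 99.2 CPM and Prdx1 at 332 and 430 CPM, while Nfe2l2 stood at 26.7 and 19.1 CPM and Gclm at 30.0 and 24.6 CPM. Genes of amino acid sensing by mTORC1 had 5 of 9 lower and a median of -0.01: Sesn3 stood at 33.4 and 58.4 CPM, Sesn1 at 14.1 and 21.8 CPM, Rragc at 28.4 and 22.9 CPM and Lamtor2 at 62.2 and 57.3 CPM. Some listed genes under 20 CPM, named after their values were seen, had wide ratios. They did not all run 1 way: the NRF2 target Nqo1 had 2 and 18 UMIs, 12.3-fold higher (2.94 to 109). The following were lower. Pck2, mitochondrial PEP carboxykinase, stood at 16.6 and 2.07 CPM, the glycoprotein hormone gene Stc2 at 9.65 and 0.670 CPM, the arginine carrier gene Slc7a3 at 7.32 and 1.34 CPM, and the glycine carrier gene Slc6a9 at 6.71 and 1.51 CPM.

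**Figure D2:**
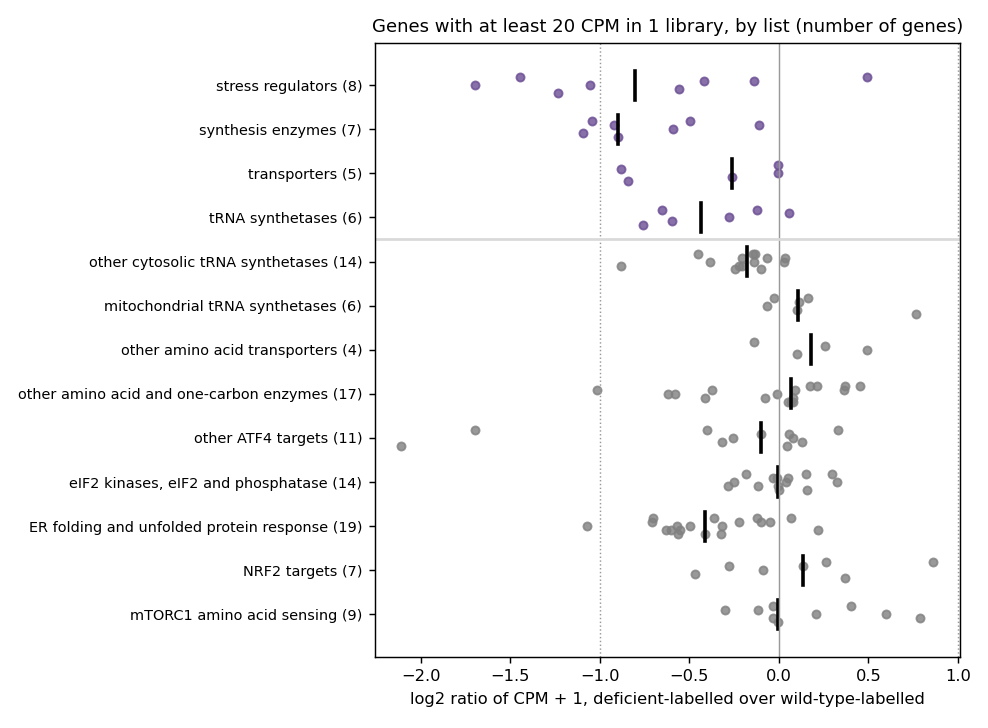
The log2 ratio of CPM + 1 (deficient-labelled over wild-type-labelled) for each gene over 20 CPM in 1 library, by list, with the number of genes in parentheses and the median as a black bar; members are purple and other lists grey. The medians of the 4 member groups run from -0.90 to -0.26, and those of the other lists from -0.41 to 0.18.

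Per cell, the difference was a shift of the whole distribution. The median cell held 19 UMIs of all members per 5000 in the wild-type-labelled library (quartiles 13 and 26) and 13 in the deficient-labelled library (9 and 18). Of deficient-labelled cells, 19.8% lay above the wild-type-labelled median, as did 47.2% of the wild-type-labelled cells themselves. The summed synthesis enzymes had per-cell medians of 700 and 374 CPM and the stress regulators 518 and 330 CPM. Transporters had medians of 1210 and 955 CPM and synthetases 1255 and 926 CPM. The distributions overlapped in all 4 groups.

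**Figure D3:**
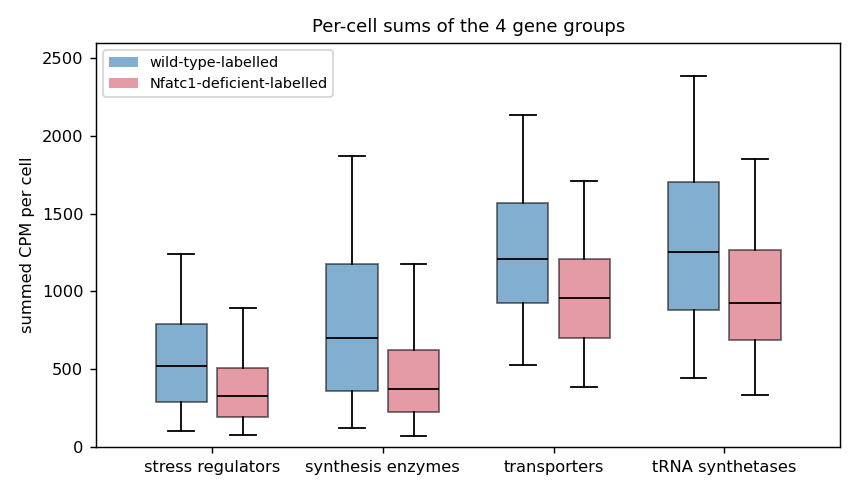
Summed CPM per cell of the 4 gene groups in the wild-type-labelled (blue) and deficient-labelled (red) library, over the cells with at least 5000 UMIs (1004 and 698). Boxes span the quartiles with the median as a line and whiskers run from the 5th to the 95th percentile of cells; the medians of the synthesis enzymes are 700 and 374 CPM.

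Members tended to be high in the same cells. For each of the 26 members over the floor, cells of 1 library were ranked by the UMIs of the other members in thinned counts, and cells at or above the upper quartile were compared with cells at or below the lower quartile. All 26 were higher in the upper-quartile cells of the wild-type-labelled library, where 54.4% of 5556 other genes were higher, and all 26 in those of the deficient-labelled library, against 48.6% of 5557. The median ratio was 2.87 over 26 members in the wild-type-labelled library, where other genes had a median of 1.03 and a 95th percentile of 1.62, which 23 members exceeded. In the deficient-labelled library the median was 2.07 over 25 members with a ratio, the 95th percentile 1.60, and 18 members exceeded it. Neither value counts Chac1, which had 23 UMIs against 0 and an interval beginning at 6.08, above that percentile. The upper and lower cells differed somewhat in full depth, with medians of 21680 and 19144 UMIs and of 23408 and 20202 UMIs, whose part was not tested.

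Trib3 and Chac1 had the highest ratios in the wild-type-labelled library. Trib3 had 61 UMIs in 288 upper-quartile cells and 4 UMIs in 274 lower-quartile cells of the wild-type-labelled library, a ratio of 14.5 (5.39 to 54.9), and 12 UMIs against 1 UMI in the deficient-labelled library, a ratio of 12.5 (1.86 to 536). Chac1 had a ratio of 9.40 (4.52 to 22.6) and, in the deficient-labelled library, 23 UMIs against 0, where the interval of the ratio began at 6.08. Cebpb had ratios of 5.46 (3.86 to 7.89) and 8.32 (4.17 to 18.8). Sesn2, whose interval between the libraries included 1, had ratios of 5.29 (2.65 to 11.7) and 9.66 (3.51 to 37.1). Other stress genes found in few cells had lower ratios: Ddit3 had 3.86 (2.60 to 5.89) and 1.69 (0.918 to 3.17), and Atf3 had 3.01 (1.67 to 5.72) and 1.55 (0.930 to 2.62). Phgdh had ratios of 6.91 (5.22 to 9.31) and 2.91 (2.04 to 4.21). At the other end, Slc7a1 had ratios of 1.12 (0.949 to 1.32) and 1.28 (1.03 to 1.59), and Slc1a5 of 1.28 and 1.38, within the range of other genes. As a description over cells that share library and depth, Spearman's rho between stress regulator and synthesis enzyme sums was 0.44 over 1004 cells and 0.25 over 698 cells, and between synthesis enzyme and synthetase sums 0.48 and 0.32.

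**Figure D4:**
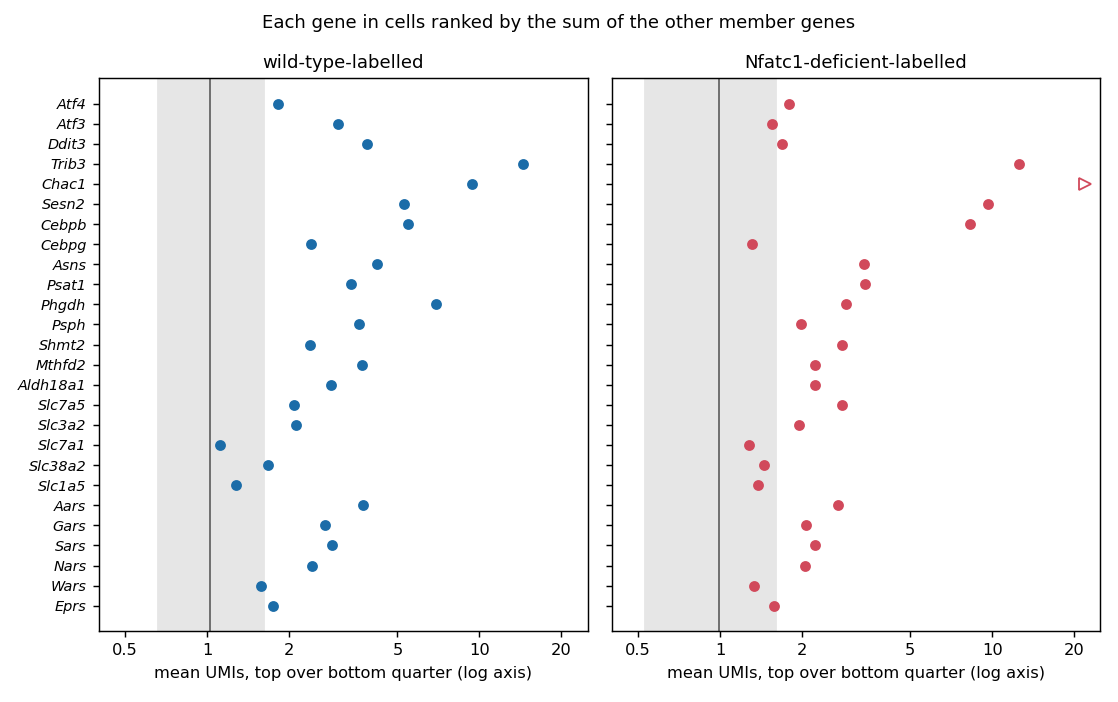
Ratio of mean UMIs (log axis) of each member over 20 CPM between the cells at or above the upper and those at or below the lower quartile of the UMIs of the other members, in the wild-type-labelled (left) and deficient-labelled (right) library. The grey band spans the 5th to 95th percentile of all other genes and the line their median; the open triangle marks Chac1, with 0 UMIs in the lower-quartile cells, and Slc7a1 and Slc1a5 lie inside the band in both panels.

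Cells were divided by their cytokine UMIs, with at least 5 UMIs per 5000 counted as producing Il17a, Il17f, Ifng or Il2. The mix of cells differed widely: Il17a without Ifng was produced by 57.7% of wild-type-labelled cells and by 19.5% of the deficient-labelled, while 4.68% and 38.3% produced Ifng without Il17a. The classes are ranges of a count rather than cell types; 19 and 21 cells held 3 or 4 Il17a UMIs, just under the limit, and 19 and 17 held 3 or 4 Ifng UMIs. Other secreted factors differed within a class as well, since Il17a producers without Ifng had a median of 2 and 46.5 Xcl1 UMIs per 5000. Cells with Ifng and Il2 had medians of 56.5 and 229 Xcl1 UMIs and of 107 and 304 Ccl4 UMIs per 5000. The class totals include these transcripts. No ratio between the libraries within a class uses a total without them, and their part was not tested. In 8 exclusive classes and 4 gene groups, all 32 sums were lower in the deficient-labelled library, and 31 had an interval below 1. The exception was the synthetase sum of cells with Ifng and Il2, at 1204 and 1137 CPM, 1.06-fold lower (0.980 to 1.14).

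The range over the classes was 1.35-fold to 2.18-fold lower for stress regulators, 1.43-fold to 2.08-fold for synthesis enzymes, 1.29-fold to 1.46-fold for transporters and 1.06-fold to 1.59-fold for synthetases. In Il17a producers without Il2 or Ifng (207 and 43 cells) the stress sum was 663 and 303 CPM, 2.18-fold lower (1.96 to 2.44). In cells with Ifng and Il2 (26 and 239 cells) it was 646 and 479 CPM, 1.35-fold lower (1.21 to 1.4996). In cells with none of the 4 cytokines (92 and 77 cells) it was 492 and 326 CPM, 1.51-fold lower (1.34 to 1.69). The difference was thus also present in cells under the limit for each of these cytokines.

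**Figure D5:**
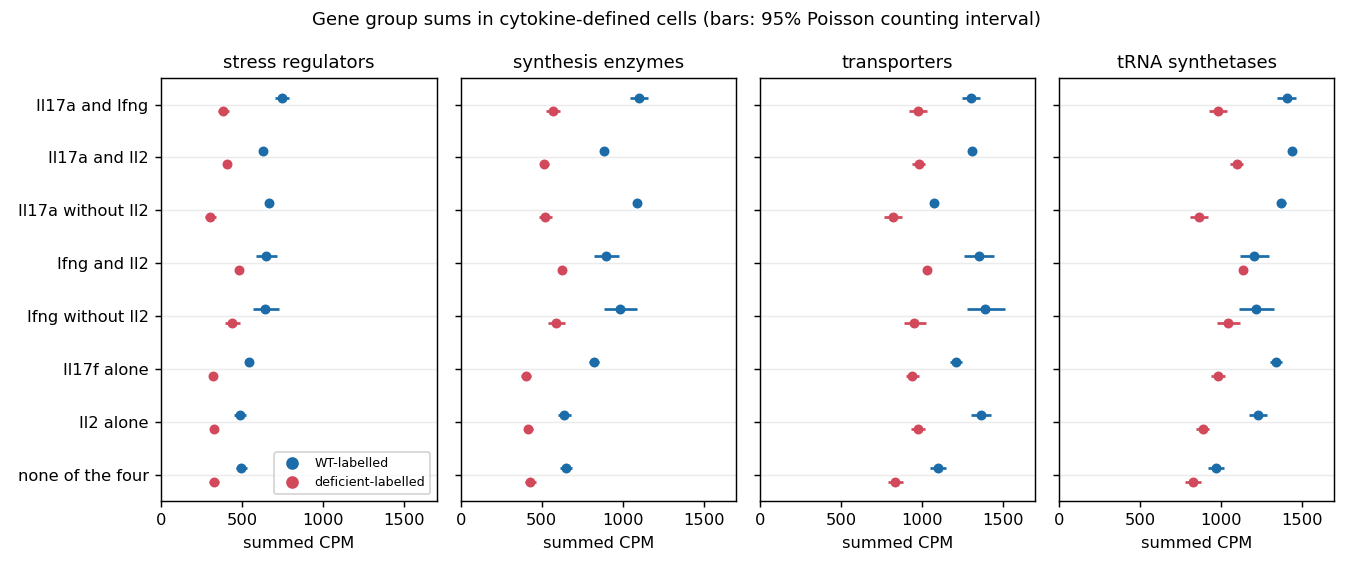
Summed CPM of the 4 gene groups in 8 exclusive classes of cells defined by Il17a, Ifng, Il2 and Il17f UMIs, in the wild-type-labelled (blue) and deficient-labelled (red) library, with 95% Poisson counting intervals. Red points lie left of blue in every row; the closest pair is the synthetase sum of cells with Ifng and Il2 (1204 and 1137 CPM).

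Member by member, 26 of 27 members over 20 CPM were lower in the deficient-labelled library among Il17a producers without Ifng, where 32.9% of 5793 genes were lower, and 8 were at least 2-fold lower, against 1.43% of genes. Their median was -0.66 and that of all genes 0.12. Among Ifng producers without Il17a (47 and 267 cells), 20 of 26 were lower, where 47.2% of 5387 genes were. Of these 26, 3 were at least 2-fold lower (Trib3, Chac1 and Phgdh), against 4.16%. The median of the members was -0.45 and that of all genes 0.03. In both classes Trib3 and Chac1 reached 20 CPM in the wild-type-labelled library alone, so they had to be lower in the other. The same held in Il17a producers for Atf3 (22.4 and 17.3 CPM), Sesn2 (22.9 and 17.1 CPM) and Slc1a4 (20.95 and 17.9 CPM). In Ifng producers it held for Ddit3 (34.1 and 18.5 CPM). Asns stood at 172 and 70.4 CPM in Il17a producers, 2.44-fold lower (2.15 to 2.78), and at 155 and 111 CPM in Ifng producers, 1.40-fold lower (1.17 to 1.66). Phgdh was similar in both, at 202 and 87.5 CPM and at 232 and 107 CPM. Slc7a1 stood at 281 and 143 CPM in Ifng producers, 1.97-fold lower (1.72 to 2.24), and at 196 and 203 CPM in Il17a producers. The difference between these ratios was not tested.

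By value, Atf3 differed more between cytokine classes than between libraries. It stood at 22.4 CPM in Il17a producers and 66.3 CPM in Ifng producers of the wild-type-labelled library, 2.96-fold higher in the latter (2.24 to 3.86). The latter value rests on 66 UMIs from 47 cells. Over all cells of that library, the tenth with the most Atf3 held 68.8% of its UMIs. In the deficient-labelled library Atf3 stood at 17.3 and 49.4 CPM, 2.85-fold higher (2.18 to 3.78). Within both classes its level was lower in the deficient-labelled library, by 1.29-fold (0.987 to 1.71, which includes 1) and 1.34-fold (1.02 to 1.75), although over all cells it was higher there. Ddit3 had the opposite slope, at 57.5 and 34.1 CPM in the wild-type-labelled library and 25.7 and 18.5 CPM in the other.

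The sum of all members was close between these producers in the wild-type-labelled library and higher in Ifng producers in the deficient-labelled library. In the wild-type-labelled library Ifng producers had 0.981 times the level of Il17a producers (0.950 to 1.01), from 47 and 579 cells, and this ratio crossed 1 with other cytokine limits and thinning depths. In the deficient-labelled library the ratio was 1.14 (1.12 to 1.17), from 267 and 136 cells. Stress regulators had ratios of 1.003 and 1.27, synthesis enzymes 0.960 and 1.21, transporters 1.13 and 1.10 and synthetases 0.857 and 1.10.

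The cell cycle moved with the result and its part was not tested. By phase scores, 6.30% of the deficient-labelled thinned cells were called G2/M, against 10.7% of the wild-type-labelled, and 20 of 23 G2/M genes over 20 CPM were lower, with a median of -0.40. Synthesis enzymes were higher in G2/M than in G1 cells of both libraries, at 1344 and 774 CPM in the wild-type-labelled library and 836 and 505 CPM in the other. With scores scaled for each gene, an alternative added after the data were seen, the G2/M shares were 20.02% and 14.8%, and synthesis enzymes stood at 1161 and 690 CPM in G2/M cells. Within G1 the stress regulators stood at 566 and 397 CPM, the transporters at 1239 and 972 CPM and the synthetases at 1304 and 1048 CPM, so each group was lower in the deficient-labelled library within that phase too.

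Over the 20 CPM floor, members with the composite site did not stand apart by much. Of the 11, 6 were over 20 CPM, with a median log2 difference of -0.79 and a range from -1.70 (Trib3) to 0.49 (Atf3). Of the 19 with an entry and no match, 16 were over 20 CPM, with a median of -0.57 and a range from -1.45 (Ddit3) to 0.06 (Eprs). Under the floor, members with a match had log2 differences of -1.07 (Nupr1), -1.13 (Pycr1), -1.59 (Slc7a11), -1.07 (Slc1a4) and -0.65 (Vldlr). Those with an entry and no match had -0.46 (Atf5), -1.97 (Ddit4) and -1.58 (Gpt2). The floor thus left out a larger part of the members with a match. No match says only that these letters are missing from the window.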

How the data were processed

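The authors deposited raw counts of UMIs for each gene and barcode, with 1 matrix per library. They were made from 10x Genomics 3′ libraries (kit version 3.1, per the labels' protocols) with Cell Ranger, whose version is 7.0.0 per the file headers, and mm10 as the genome, per the submitters' processing notes. The handling of intronic reads and the annotation are not stated in the sources used here. Multiplexing tags made up 3.83% and 4.20% of counts and were left out of all totals.

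The filter (500 genes or more, mitochondrial UMIs up to 10%) kept 88.6% and 94.0% of barcodes. UMIs were summed over cells and divided by the library total. Folds are ratios of CPM; log2 differences use a pseudocount of 1 CPM, which understates the ratios of low genes. Intervals at 95% are exact Poisson for sums, conditional binomial for ratios, both as if UMIs were independent, and Clopper-Pearson for shares. Cells were thinned to 5000 UMIs for shares and classes, leaving out 14 and 11 shallower cells. Phases were scored as the mean log value of S or G2/M genes less that of control genes of like mean. Scrublet (scanpy 1.11.5, expected rate 5%) called 6 and 5 doublets (0.589% and 0.705%), kept here and left out in an alternative. Gene coordinates come from the mm10 annotation and promoter windows from RefSeq (GRCm38); 1 window with a match is not reported here.

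No test was run, since each group is 1 library. The size rule asked for 20 CPM in 1 library and a 2-fold difference. The naming rule covers every member, the 2 highest and 2 lowest ratios of each other list over 20 CPM, Nfatc1 and the cytokines that define classes. Departing from it, cell cycle and cytokine lists are given without such genes. Pck2, Stc2, Slc7a3, Slc6a9, Nqo1, Xcl1 and Ccl4 were named after their values were seen. The members and lists were chosen with earlier results of these data known. The scripts were tested on simulated data. Alternatives were other scalings (edgeR TMM factors, median ratio size factors), totals, pseudocounts, floors, barcode filters, cells and thresholds. The scripts ran in Python 3.11.15 with pandas 2.3.3, SciPy 1.17.1 and NumPy 2.4.6.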

Additional observations from a re-analysis of the deposited data

Results flagged for a closer look

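The tRNA synthetase sum ran in opposite directions between cytokine producers of the 2 libraries. Ifng producers without Il17a had 0.857 times (0.808 to 0.908) the level of Il17a producers without Ifng in the wild-type-labelled library, at 1209 and 1410 CPM, and 1.10 times (1.06 to 1.15) in the deficient-labelled library, at 1127 and 1022 CPM. This difference between the libraries was not tested, since each is a single library, and the wild-type-labelled value rests on 47 Ifng producers.

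The multiplexing tags are data that no comparison above uses. In the deficient-labelled library 91.9% of tag counts fell on 1 tag, and that tag took 5.39% of tag counts in the wild-type-labelled library. Every kept cell of each library had its own library's leading tag as its highest.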

How the results depend on the processing

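No paired analysis was possible because each group is 1 library and no result comes from a test; for the same reason no replicate could be left out. The count of members at least 2-fold lower, 6, was 10 with ribosomal protein genes left out of the total, 3 in G1 cells and 12 with no floor; over the other settings, among them a floor on the mean of both libraries chosen after seeing the data (4), it lay between 4 and 9. Of all genes over the floor, 116 of 5584 were at least 2-fold lower in the main setting. Without ribosomal protein genes 176 of 6363 were, and in G1 cells 110 of 5494. With no floor 1.88% of genes were, and with the floor on the mean 1.69%. Without cytokines in the total (4 members) 96 of 5763 genes were, and without Ifng producers (9 members) 91 of 5733. All 4 group sums were lower in the deficient-labelled library under every setting run. The stress regulator log2 difference, -0.62, was -0.53 without cytokines in the total, -0.73 without ribosomal protein genes, -0.51 in G1 cells, -0.82 without Ifng producers and -0.76 with the class mix of the wild-type-labelled library. In the same order, that of the synthesis enzymes, -0.77, was -0.69, -0.89, -0.62, -0.98 and -0.86, and -0.73 in thinned cells. That of the synthetases, -0.40, was -0.31, -0.51, -0.31, -0.51 and -0.44. That of the transporters, -0.34, was -0.25 without cytokines, -0.45 without ribosomal protein genes, -0.38 as a mean over cells, -0.37 in thinned cells, -0.39 without Ifng producers and -0.41 with the class mix. Leaving ribosomal protein genes out moved the median of all genes from 0.03 to -0.08, and leaving cytokines out moved it to 0.12. The cause of these shifts was not tested. The log2 ratio of all members in Ifng over Il17a producers, -0.028 in the wild-type-labelled library, was 0.043 and 0.066 with limits of 3 and 10 UMIs, 0.12 and 0.071 with thinning to 2500 and 10000 UMIs and -0.094 in G1 cells; that of the deficient-labelled library, 0.19, was 0.25 with a limit of 10 UMIs, 0.32 without cytokines in the total, 0.15 in G1 cells and 0.11 without the 5% of cells with the most UMIs. Over 15 settings, 20 of the 26 members over the floor kept 1 direction; Atf3, Shmt2, Slc3a2, Slc1a5, Wars and Eprs did not. Members with few UMIs, such as Vldlr and Nupr1, are limited by depth.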
